A study of Arabidopsis thaliana with 4 samples.

Results

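RALF (rapid alkalinization factor) genes encode small, cysteine-rich peptides that plant cells secrete as signals. Here they were followed in root tips of Arabidopsis thaliana, in wild type and in the mutant sol2. The genes were found by their annotated symbol and selected on signal, by the mean log2 signal over all 4 arrays: of 11 RALF-like genes with a probe set of their own, 7 lay at or above the 40th percentile of all probe sets. These are RALFL22, RALFL24, RALFL27, RALFL31, RALFL32, RALFL33 and RALFL34. The RefSeq gene table holds 34 genes with a RALF symbol, and the other 23, RALF1 and RALF23 among them, had no single-gene probe set named for them and were not analysed here.

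RALF peptides raise the pH of the space outside the cell, and in roots they are known to restrain cell elongation. They bind receptor kinases of the CrRLK1L family, of which FERONIA (FER) is the best known, together with LORELEI-type co-receptors that are anchored in the membrane by a lipid. Some are cut from a longer precursor by the protease S1P, and several bind LRX proteins, which are held in the cell wall.

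The series compares sol2 with wild type, with 2 arrays of each genotype and root tips as the labelled tissue. SOL2, also called CORYNE, is a receptor-like kinase that acts in the signalling of CLE peptides, another peptide family. Both genotypes were grown for 4 days at 23 °C on MS medium under continuous light, after the seeds had been surface-sterilised. The labels give neither the nature of the sol2 allele nor the accession of the plants, nor whether the replicates came from separate cultures.

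All arrays carried the same 22810 probe sets, with medians between 142.7 and 160.75. Over the 13648 tested probe sets, the wild type arrays differed from each other by a median of 0.294 on the log2 scale (absolute differences). The sol2 arrays differed by 0.182, so wild type was the more variable pair. Wild type replicate 2 differed less from the sol2 arrays (0.22 from replicate 1, 0.189 from replicate 2) than from wild type replicate 1. Wild type replicate 1 was also nearer to sol2 replicate 1, but not to sol2 replicate 2 (0.326), than to wild type replicate 2. By this measure the wild type arrays did not group together. The correlation of wild type replicate 2 was 0.966 with sol2 replicate 2, 0.963 with wild type replicate 1 and 0.961 with sol2 replicate 1. A gene is called measured here only if a probe set names it alone. Of the 22746 probe sets other than controls, 8730 had no gene name, and listed genes called not measured may be among them. Of 12 root tip marker genes, 2 had a named probe set. JKD, a transcription factor of the root ground tissue, had 143.0 and 183.5 in wild type against 150.6 and 178.5 in the mutant, and the root cap polygalacturonase gene AT1G65570 (RCPG) 285.6 and 515.8 against 575.5 and 631.3. The 3 measured of 7 pollen markers never exceeded 35.0. For leaf tissue 1 of 8 markers was measured, the Rubisco activase gene RCA (296.5 and 251.3 in wild type, 183.7 and 147.8 in sol2), and for endodermis and stele none of 8.

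The 4 RALF-like genes below the filter, RALFL18, RALFL25, RALFL26 and RALFL28, had signals from 0.4 to 19.0 on all arrays. The highest signal of 27 control probe sets for bacterial transcripts was 34.1, so these 4 genes were not distinguishable from background in either genotype, and no fold change is given for them. The nearest gene outside the filter, at a mean log2(signal + 18.4) of 6.62, was RALFL25 with 5.04, and the nearest inside was RALFL31 with 7.97. The 7 genes above it had signals from 209.5 to 4390.6. In the gene order of the TAIR10.1 assembly, RALFL25 and RALFL26 have 1 annotated gene between them and RALFL31 and RALFL32 have 12, while every other pair of consecutive measured family members on a chromosome lies at least 185 genes apart.

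**Figure D1:**
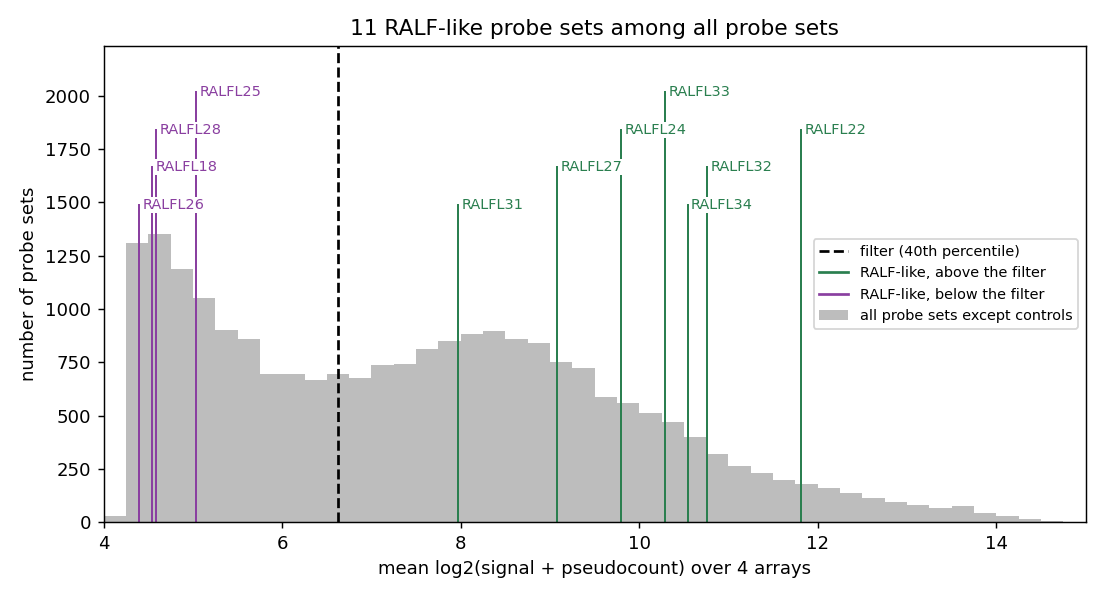
Histogram of the mean log2(signal + 18.4) over the 4 arrays for all probe sets except controls (vertical axis, number of probe sets), with the 11 RALF-like probe sets marked by lines and the filter by a dashed line. The 4 genes below the filter lie at the low end, and the 7 above it lie between 7.97 and 11.8. Lines of different probe sets are not a comparison of transcript amounts, since probes differ in brightness.

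None of the 7 RALF-like genes passed the test between sol2 and wild type in either direction. The test was limma, fitted over all 13648 probe sets, with calls at an adjusted p under 0.05. Over all tested probe sets 1.25% were called, 0.945% higher and 0.3% lower in sol2. The adjusted p of the 7 genes lay between 0.389 and 0.989. At an unadjusted p under 0.05 there was 1 of 7, RALFL27, where 8.9% of all tested probe sets reached that level; those lower in sol2 made up 3.76% of all tested.

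RALFL27 (AT3G29780, chromosome 3) had the largest difference between genotypes of the family. Its signal was 1078.1 and 499.1 on the wild type arrays of replicates 1 and 2, and 395.3 and 350.5 on those of sol2. Both sol2 arrays lay below both wild type arrays, but wild type replicate 1 stood far above the other 3. The means were 789 ± 409 in wild type and 373 ± 31.7 in sol2 (SD, n = 2). On the scale of log2(signal + 18.4) the difference was -0.95 ± 0.34 (SE; 95% interval -1.73 to -0.17; unadjusted p = 0.0235, adjusted p = 0.389, limma). On that scale, signal + 18.4 in sol2 was 51.9% of that in wild type, with an interval from 30.2% to 89.2%. A bulk signal does not tell fewer cells of a type from less RNA per cell.

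The spread of RALFL27 came from wild type. Its wild type arrays differed by 1.08 on the log2 scale, and only 2.43% of the tested probe sets differed as much between these arrays. Its sol2 arrays differed by 0.17, which 54.0% of probe sets reached. Without wild type replicate 1 the difference between genotypes was -0.41 (adjusted p = 0.535). Without wild type replicate 2 it was -1.49 and passed the test (adjusted p = 6.78e-05), in a fit that called 4.02% of all probe sets lower and that assumed the lone wild type array to vary like the sol2 arrays. Leaving out a sol2 array gave -1.03 and -0.86, without a call.

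**Figure D2:**
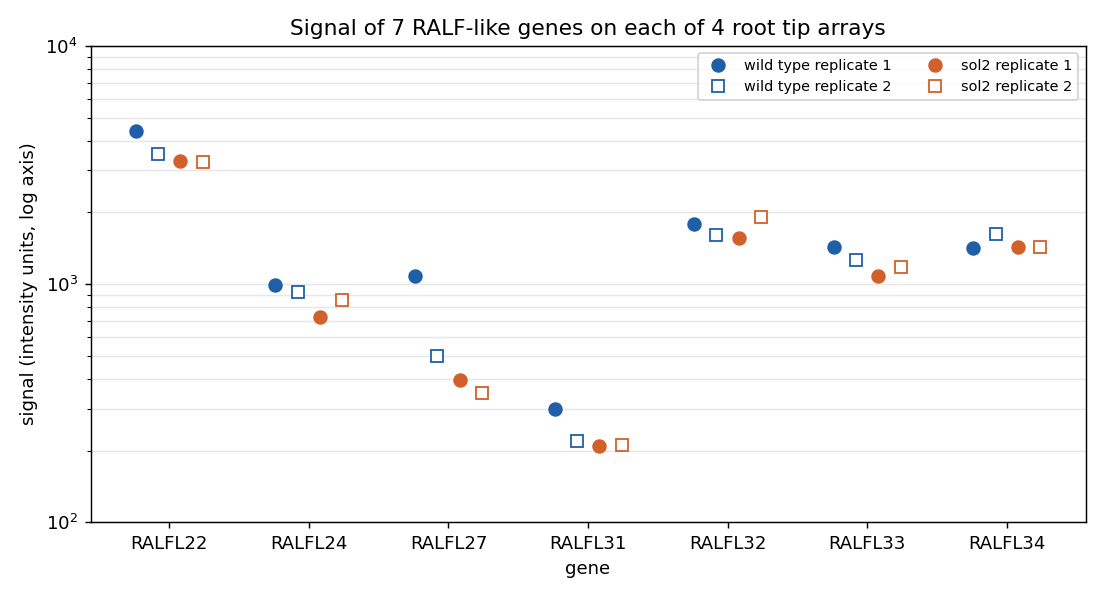
Signal of the 7 RALF-like genes (horizontal axis) on each array, on a log axis in intensity units. Blue marks are wild type and orange marks sol2, filled circles replicate 1 and open squares replicate 2. RALFL27 runs from 350.5 to 1078.1, and the other genes vary by at most 1.42 times between their lowest and highest array.

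Among the ligands with a known receptor or partner, RALFL22 is known to act at root hair walls together with LRX proteins. Its signal was 4390.6 and 3518.2 in wild type, against 3288.8 and 3257.4 in sol2. The sol2 arrays were nearly equal and lay below both wild type arrays. The difference was -0.26 ± 0.17 on the log2 scale (95% interval -0.65 to 0.13, adjusted p = 0.818).

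RALFL33, a peptide known to dampen immune signalling through FER, had 1428.5 and 1262.5 in wild type against 1076.6 and 1180.1 in sol2. Here too both sol2 arrays lay below the wild type arrays, by a difference of -0.25 ± 0.18 (95% interval -0.67 to 0.17, adjusted p = 0.855).

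RALFL34, a ligand of the receptor kinase THE1 with a known part in lateral root formation, had 1417.8 and 1617.3 in wild type against 1426.5 and 1435.0 in sol2. Its genotypes overlapped, since wild type replicate 1 was the lowest array and wild type replicate 2 the highest. The log2 difference was -0.08 ± 0.18, and its interval from -0.49 to 0.33 spans sol2 levels (signal + 18.4) between 71.2% and 126% of wild type.

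RALFL24 had 987.0 and 923.3 in wild type against 728.9 and 854.9 in sol2, again without overlap. The difference was -0.27 ± 0.19 (95% interval -0.71 to 0.18, adjusted p = 0.855). RALFL31 had 297.9 and 218.9 against 209.5 and 210.1. The sol2 arrays were within 1 unit of each other and only slightly below wild type replicate 2, with a difference of -0.26 ± 0.24 (interval -0.81 to 0.29, adjusted p = 0.913).

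RALFL32 was the family member with the smallest difference, at 1783.4 and 1605.5 in wild type against 1563.8 and 1907.8 in sol2. Its lowest and highest arrays were both sol2. The log2 difference was 0.03 ± 0.19 (95% interval -0.40 to 0.46, adjusted p = 0.989).

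Over the 7 genes the median log2 difference was -0.26, against 0.004 over all tested probe sets. The fitted value was below 0 for 6 of 7 genes, RALFL32 being the exception, and for 49.3% of all probe sets; with equal array medians RALFL32 was at -0.004 too. In 5 of 7 genes both sol2 arrays lay below both wild type arrays, and in none above them, where 18.6% of all tested probe sets were lower and 17.5% higher without overlap. Wild type replicate 1 was the highest array for the same 5 genes, RALFL22, RALFL24, RALFL27, RALFL31 and RALFL33, and for 27.5% of all probe sets. Genes measured on the same 4 arrays share whatever set those arrays apart, so the count over 7 genes is a description.

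**Figure D3:**
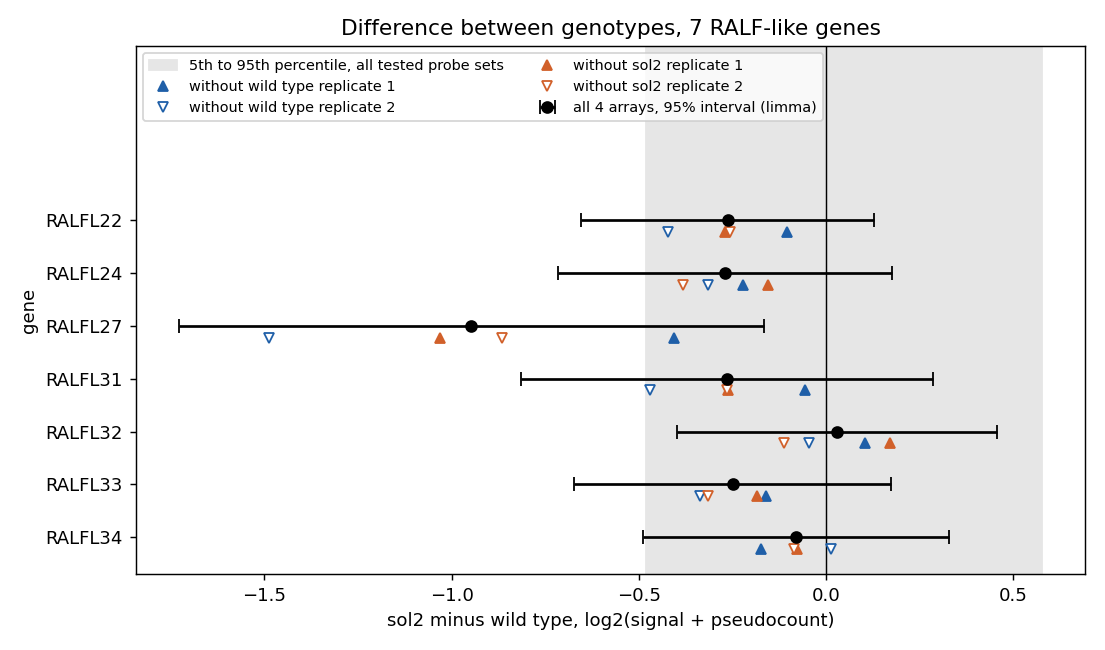
Difference sol2 minus wild type in log2(signal + 18.4) for each RALF-like gene, with the 95% interval of limma (black), the same difference with each array left out in turn (coloured triangles), and the 5th to 95th percentile of all tested probe sets, -0.48 to 0.58 (grey). Only the interval of RALFL27 lies wholly below 0, and its value runs from -1.49 to -0.41 as arrays are left out.

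Without wild type replicate 1, the differences of RALFL22 and RALFL31 were -0.10 and -0.06, and without wild type replicate 2 they were -0.42 and -0.47. RALFL24 and RALFL33 moved less as arrays were left out, from -0.38 to -0.16 and from -0.34 to -0.16. None of these 4 genes passed in any of those fits.

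Other genes of the pathway were taken from lists compiled by locus tag, and the names CVY1, BUPS1, BUPS2, LRX4 to LRX6, MRI, RCPG, PRX7 and PRX44 come from those lists rather than from the gene tables. Of 52 pathway genes, 24 had a named probe set and 8 lay above the filter. None passed the test (adjusted p from 0.313 to 0.988, limma), where 1.25% of all tested probe sets were called. An unadjusted p under 0.05 was reached by 1 of the 8, and by 8.9% of all tested probe sets. The median log2 difference of the 8 was -0.14.

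Of 17 CrRLK1L receptor kinases 12 were measured and 3 lay above the filter. FER, the receptor of RALF1 and other family members, had 2934.3 and 2322.4 in wild type, against 2876.5 and 2489.6 in sol2. Its genotypes overlapped, and the difference was 0.04 ± 0.19 (95% interval -0.39 to 0.46). THE1, the receptor of RALFL34, had 1564.7 and 1563.7 against 1290.6 and 1419.2, without overlap (-0.21 ± 0.17, adjusted p = 0.899). CVY1 (AT2G39360), a kinase known for its effect on cell shape, had 295.1 and 173.1 against 228.2 and 197.2 (-0.09 ± 0.28). Of the other 9, 6 stayed under the highest bacterial control signal on all arrays, among them the pollen tube receptors ANX1, ANX2, BUPS1 (AT4G39110) and BUPS2 (AT2G21480). No LORELEI-type co-receptor had a named probe set.

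Among the LRX wall proteins, 8 of 11 were measured and 3 lay above the filter. LRX6 (AT3G22800) had 279.0 and 156.5 in wild type against 106.8 and 96.7 in sol2. As for RALFL27, wild type replicate 1 was the highest array and both sol2 arrays the lowest. Its difference was -0.93 ± 0.30 (95% interval -1.62 to -0.23; unadjusted p = 0.0151, adjusted p = 0.313). With wild type replicate 1 left out it was -0.54, and with replicate 2 of wild type left out it was -1.31 and passed (adjusted p = 0.0021). LRX4 (AT3G24480) had 235.8 and 189.9 against 167.5 and 190.0, and LRX5 (AT4G18670) 94.4 and 130.8 against 94.0 and 161.1, both with overlap.

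The protease gene S1P had 388.1 and 596.1 in wild type against 414.7 and 519.2 in sol2 (-0.05 ± 0.26), so replicate 2 was higher in each genotype. The kinase gene MRI (AT2G41970), which acts below CrRLK1L receptors in pollen tubes and root hairs, had 976.0 and 834.8 against 819.9 and 753.5 (-0.20 ± 0.19, adjusted p = 0.923). Of 20 genes of processing and downstream signalling, 4 had a named probe set, and of those only S1P and MRI lay above the filter.

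**Figure D4:**
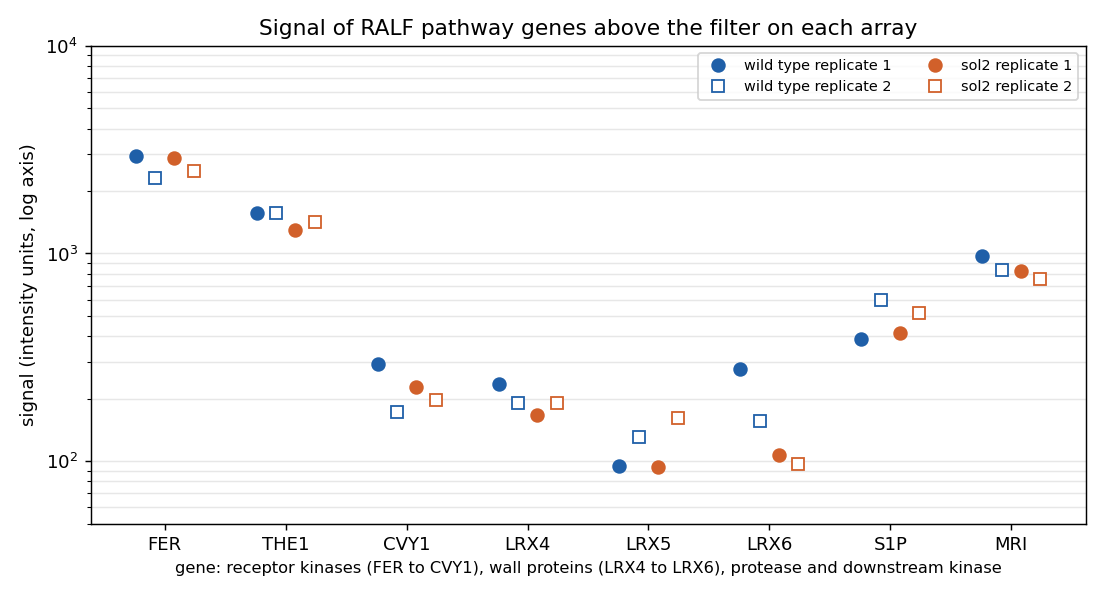
Signal of the 8 pathway genes above the filter on each array, on a log axis in intensity units, with wild type in blue, sol2 in orange, filled circles for replicate 1 and open squares for replicate 2. LRX6 runs from 96.7 to 279.0 with both sol2 arrays below wild type, while FER overlaps between genotypes.

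The pattern of RALFL27 over the arrays was set against that of all other tested probe sets with 1 gene, 7406 in number. Likeness was the Euclidean distance between the 4 log2 values, each centred on the gene's own mean. The nearest was AT2G35585 (distance 0.14), with 279.1 and 134.8 in wild type, against 91.0 and 89.4 in sol2. AT4G30450 followed (0.19), with 1695.5 and 907.2 against 666.5 and 660.4. The gene CP1 (AT4G36880; 0.20) had 3016.3 and 1694.2 against 1185.1 and 1145.6. The selection by likeness to RALFL27 fixes which array is highest in these genes.

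The next was the root hair peroxidase gene AT4G26010 (PRX44; 0.20), with 5019.5 and 2857.2 in wild type against 2161.6 and 1918.3 in sol2. AT5G19970 (0.21) had 564.8 and 255.4 against 241.5 and 178.3. LRX6 ranked sixth by this measure (0.23), which uses 4 values per gene only, and the median distance was 1.32. None of the 5 genes passed the test, with adjusted p from 0.222 to 0.569 (limma). The selection by likeness to RALFL27, which did not pass either, largely fixed that outcome in advance. The nearest of the other RALF-like genes, RALFL31, had rank 570 and a distance of 0.84.

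**Figure D5:**
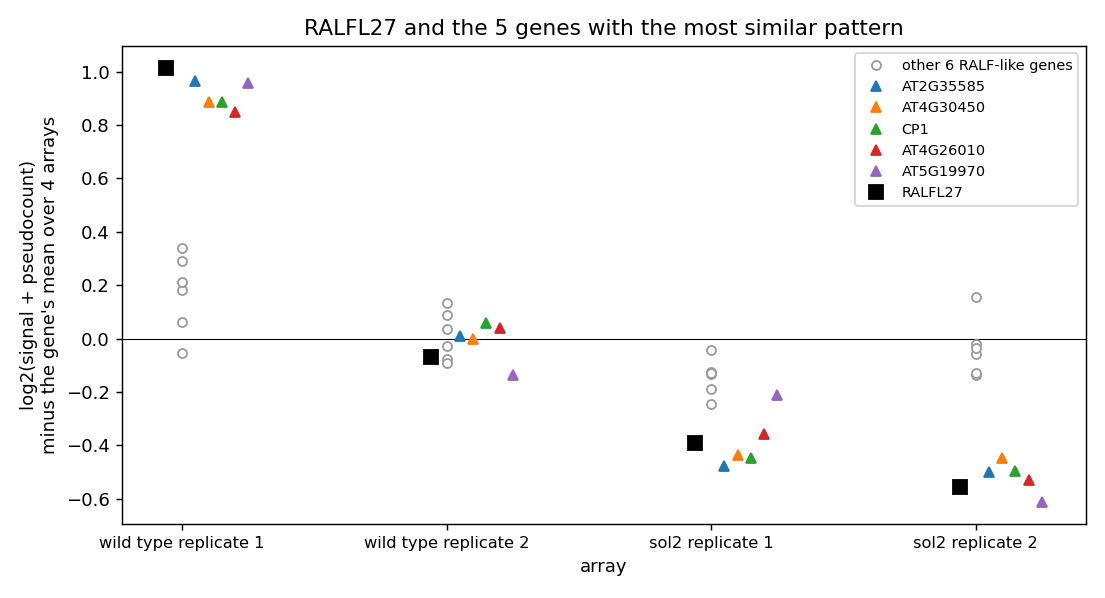
Log2(signal + 18.4) on each array minus the gene's mean over the 4 arrays, for RALFL27 (black squares), the 5 genes nearest to it (triangles) and the other 6 RALF-like genes (open circles). RALFL27 lies at 1.02 on wild type replicate 1 and at -0.56 on sol2 replicate 2, and the other RALF-like genes stay between -0.25 and 0.34.

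Markers of other cell types and of RNA quality were read on the same arrays. Of 11 root hair markers 4 were measured, all above the filter. None passed the test, where 1.25% of all tested probe sets were called. The summed signal of the 4 markers was 12260 and 8485 in wild type against 9925 and 8290 in sol2. The sum overlapped between the genotypes and was highest on wild type replicate 1, but not every marker was. PRX44 and EXPA7 were highest on that array, EXPA18 on wild type replicate 2 and PRX7 on sol2 replicate 1. EXPA7 overlapped between genotypes, with a log2 difference of -0.14 ± 0.23. PRX44 had a log2 difference of -0.89 ± 0.26 (adjusted p = 0.238), EXPA18, a root hair expansin gene, -0.37 ± 0.17, and the peroxidase gene AT1G30870 (PRX7) had the opposite sign with 0.45 ± 0.22. PRX44 was at -0.48 without wild type replicate 1 and at -1.29, with a call, when replicate 2 of wild type was left out (adjusted p = 6.07e-05, limma). PRX7 ranged from 0.18 to 0.72 as arrays were left out and was called without wild type replicate 1 (adjusted p = 0.026). The leaf marker RCA had a difference of -0.67 ± 0.23 (unadjusted p = 0.0216, adjusted p = 0.372), with wild type replicate 1 highest and both sol2 arrays lowest, as in RALFL27. The root cap marker RCPG had 0.62 ± 0.29 (adjusted p = 0.599), with wild type replicate 1 lowest and no overlap. It was 0.22 without wild type replicate 1, and 1.03 with a call when the other wild type array was left out (adjusted p = 0.00388). Wild type replicate 1 also had the highest 25S rRNA control signal, 665.1, against 223.0 on wild type replicate 2 and 84.0 and 175.8 in sol2. The ratio of 3' to 5' signal is a sign of RNA integrity and labelling. For ubiquitin it was 3.02 and 3.87 in wild type against 2.46 and 2.29 in sol2, for actin 8.45 and 24.5 against 11.6 and 36.9, and for a second pair of actin probe sets 1.81 and 2.30 against 1.72 and 2.81. Ubiquitin was thus lower in sol2 without overlap, while both actin ratios overlapped between genotypes and were higher on replicate 2 of each. For GAPDH it stayed between 0.971 and 1.07. The part of these measures in the values of RALFL27 and the other RALF-like genes was not tested.

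Other secreted signalling peptides were found by their annotated symbol only, so probe sets without a gene name could not be included. Sought were IDA, PLS and, with a number, CLE, CLEL, GLV, RGF, PSK, PSY, CEP, IDL, EPFL, EPF, DVL, RTFL, PROPEP and TPD. By these symbols 6 genes had a named probe set, all of the CLE family, and 1 lay above the filter. CLE27 had 104.0 and 103.1 in wild type against 67.7 and 74.1 in sol2, without overlap and with nearly equal values in wild type. Its sol2 signals lay under 80.1, the signal to which the filter corresponds. CLE41, below the filter, went the other way without overlap, with 47.0 and 39.8 in wild type against 66.8 and 93.6 in sol2. The remaining CLE genes overlapped between genotypes. CLE27 did not pass the test (log2 difference -0.45 ± 0.24, 95% interval -1.01 to 0.11, adjusted p = 0.728, limma).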

How the data were processed

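The deposited values were linear intensity values, 1 per probe set and array. GCOS is the tool named per the submitters' processing notes; the sources used here give no version or algorithm. Arrays had been scaled alike, since the trimmed mean (middle 96% of values) was between 500.05 and 500.06 on each, and no normalization was added. Of 22810 probe sets, 64 controls were left out; 13513 of the rest had 1 gene in the platform annotation, of which 13436 matched the RefSeq table of TAIR10.1 by gene identifier, 72 by symbol and 5 not at all.

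Values were transformed as log2(signal + 18.4), 18.4 being the 20th percentile of all values, so differences of dim genes are understated. The 13648 probe sets at or above the 40th percentile of the mean were fitted with limma 3.58.1 in R 4.3.3 (lmFit, eBayes with an intensity trend, two-sided; genotype only; Benjamini-Hochberg over all tested). The fit was also run on simulated data, with independent noise of the same variance in both genotypes. That run does not cover unequal spread between genotypes or replicate differences shared by them. With 2 arrays per genotype the number of arrays limits the precision, and the spread between arrays may be technical. In every fit eBayes drew each gene's variance toward that of probe sets with similar mean signal. SEs, intervals and p-values thus rest in part on other probe sets, not only on a gene's own spread. The pairs of RALFL27 differed by 1.08 (wild type) and 0.17 (sol2), with an SE of 0.34. Those of CLE27 differed by 0.01 and 0.10, with an SE of 0.24. In the fit with a replicate block the spread was largely pooled over probe sets.

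Members and lists were chosen with earlier results of these data known. Named were all members, the pathway genes above the filter, the 5 nearest genes to the member with the largest difference, and up to 3 genes per marker or peptide list. Tables and figures used Python 3.11.15, pandas 2.3.3 and matplotlib 3.10.9. Alternatives covered scaling, pseudocount, filter, prior, threshold, a replicate block and each array left out.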

Additional observations from a re-analysis of the deposited data

How the results depend on the processing

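No RALF-like gene was called higher under any alternative. The number called lower was 0 in the main fit and in all alternatives except 2: it was 1 with the replicate block and 1 without wild type replicate 2, RALFL27 both times, and 0 to 1 as arrays were left out in turn. The 60th-percentile filter tested 6 of 7 genes. RALFL27 lay between -0.98 and -0.86 in all settings that kept all arrays and between -1.49 and -0.41 with an array left out. The labels say nothing of a pairing by replicate number. Across probe sets, the replicate 1 minus 2 difference of wild type had a correlation of 0.441 with that of sol2. With the replicate block RALFL27 kept its difference of -0.95 with an adjusted p of 4.58e-05 (limma). LRX6, PRX44, RCPG, PRX7 and RCA passed as well, and 660 probe sets were higher and 462 lower of all tested. In that fit genes of similar mean signal had nearly the same SE, 0.195 for RALFL27 and 0.198 for S1P and RCPG. Yet the replicates of RALFL27 differed by 1.08 in wild type and 0.17 in sol2. Its adjusted p there thus rested largely on variance pooled over probe sets, not on its own spread.

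Signs changed for 7 genes, in no case with a call. With equal array medians RALFL32 was at -0.00368 and JKD at -0.0180, and with quantile normalization JKD was at -0.0203. With arrays left out in turn, values ran from -0.11 to 0.17 for RALFL32, -0.175 to 0.0129 for RALFL34, -0.13 to 0.20 for FER, -0.44 to 0.27 for CVY1, -0.21 to 0.47 for LRX5, -0.35 to 0.25 for S1P and -0.15 to 0.18 for JKD. The cause was not tested. In these fits a genotype's only array took the variance of the other genotype. For the 22 named genes, 251 of 278 values under alternatives kept direction and side of the threshold. Signals under 34.1 are not distinguishable from background.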

Other observations

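The genes next to the RALF-like genes in the TAIR10.1 gene order were looked at as well. Only tested probe sets with 1 named gene could be placed in that order, 7407 of the 13648 tested. For each of the 7 genes the nearest such gene on either side was taken, at most 30 annotated genes away. None of these 14 neighbours passed the test (limma), where 1.25% of all tested probe sets were called. None had an unadjusted p under 0.05, a level that 8.9% of all tested probe sets reached. The log2 differences of the 14 neighbours lay between -0.31 and 0.49. For RALFL27 the nearest that could be placed were AT3G29760, 24 annotated genes before it (-0.20), and AT3G30160, 30 after it (0.30). Tested probe sets without a single named gene may lie closer.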
